A study of Mus musculus with 12 samples.

Results

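The genes described are Csf1 and Il34, which encode the secreted ligands M-CSF (CSF-1) and IL-34, and Csf1r, which encodes the receptor that both ligands share. They were chosen by name, as 3 of the 34821 gene names on the array, and followed through every probe that carries one of them. This gave 7 of 55681 probes: 3 for Csf1, 3 for Csf1r and 1 for Il34. All 7 probes were well above background on all 12 arrays, and none had a saturated spot.

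CSF-1R is a receptor tyrosine kinase of monocytes and macrophages. Ligand binding pairs the receptor chains, which phosphorylate one another, and Src family kinases, PI3-kinase and the MAP kinases carry the signal to survival, growth and differentiation. In the kidney, tubular epithelium can make both ligands after injury, and IL-34 can keep macrophages alive through the same receptor where M-CSF is lacking.

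RNA of 12 samples in 4 groups of 3 was hybridised to Agilent arrays with a single dye. Op/op renal cells came from mice homozygous for the Csf1op allele, and WT renal cells from wild-type mice of the same strain (B6C3Fe a/a-Csf1op/J). Both received 80 mg/kg glyoxylate over 6 days, which leads to renal calcium oxalate crystals, and kidney cells carrying CD11b and CD11c were then sorted magnetically. M1 cells were bone marrow derived macrophages stimulated with LPS and GM-CSF, and M2 cells were the same kind of cell stimulated with IL-4 and M-CSF. The labels thus name one of the ligands studied here as a treatment of the M2 cells. The labels carry the same strain name and treatment text for the marrow samples. They do not say which genotype the marrow donors had or whether these donors received glyoxylate, nor the age of any mouse. No renal group without glyoxylate was analysed here, and the labels do not say whether the 3 arrays of a group came from separate animals or cultures, so p-values measure only the spread between these samples. The op allele is a frameshift in the coding sequence that removes working M-CSF in every tissue but leaves a transcript, so the Csf1 signal does not check the genotype.

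Levels are log2 signals relative to the 75th percentile of each array, where 0 is that percentile. Differences between groups were fitted with limma on all probes, and a probe counts as called where its Benjamini-Hochberg adjusted p is under 0.05. The 4 groups share 1 estimate of spread per probe, but renal replicates lay farther apart (median residual SD 0.32, against 0.14 in marrow). For Il34 these SDs were 0.54 and 0.19. At such spreads, standard errors and intervals between renal groups are narrower, and those between marrow groups wider, than each tissue's own replicates would give. The 12 macrophage markers (among them Adgre1, Cx3cr1 and the C1q genes) were well above background on every op/op and every WT renal array, although 10 of the 12 were lower in op/op cells. Their summed linear level was 261 to 337 in op/op and 256 to 409 in WT cells, a sum led by Itgam, the gene of CD11b (mean log2 level 8.05 in op/op and 7.72 in WT cells). The sorted cells also carried tubular RNA: 10 of 11 proximal tubule markers were well above background on every op/op array and 11 of 11 on every WT array. WT replicate 1 was hybridised alone on slide 1, the other 5 renal arrays on slide 2 and the 6 marrow arrays on slide 3. Renal against marrow and slide therefore cannot be told apart. Within slides 2 and 3, row and group cannot be told apart either. On slide 2 op/op arrays lay in the lower row and WT arrays in the upper row. On slide 3 M2 arrays lay in the lower row and M1 arrays in the upper row.

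Probes are named here by the position at which the annotation in the files places them in the transcript, counted in bases from its start. The 2227 and 2256 probes of Csf1 (chr3:107548550-107548609 and chr3:107548521-107548580, mm9, minus strand) are annotated to 1 Csf1 transcript and overlap by 31 bases, so they are not independent. The 3749 probe of Csf1 (chr3:107544333-107544392, minus strand) is annotated to other Csf1 transcripts and was printed on 10 spots. The Il34 probe is the 1672 probe (chr8:113265835-113265894, minus strand). The following stretches of 30 bases identify which Csf1 and Il34 transcripts were measured. Bases in capitals are those that the printed stretches of the 2 overlapping Csf1 probes share.
Csf1 2227 probe, bases 16 to 45: cacattagttttaaCAGCTGCATCATATAT
Csf1 2256 probe, bases 1 to 30: CAGCTGCATCATATATtgtcatatgttgag
Csf1 3749 probe, bases 1 to 30: tgtggggcttacttagccttctggttacag
Il34 1672 probe, bases 1 to 30: aagaacgacggggtgcctcctaggatccca

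The 3 Csf1r probes lie on the plus strand of chromosome 18, all annotated to the same Csf1r transcript. The 1841 probe covers bases 61278661 to 61278720, the 2871 probe covers 2 blocks within a span of 361 bases from 61289398 to 61289758, and the 3806 probe covers bases 61290725 to 61290784 (mm9).

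The first question was whether the Csf1 transcript differed in op/op kidney cells. The 3749 probe of Csf1 gave -0.94, -0.04 and -0.52 in op/op cells (replicates 1, 2 and 4), against -0.19, -0.16 and 0.00 in WT cells. Replicates 1 and 4 of op/op lay below all WT arrays and replicate 2 lay among them, so the groups overlapped. The difference, op/op minus WT, was -0.39 ± 0.21 (SE, limma adjusted p = 0.138, 95% interval -0.85 to 0.08). The 2256 probe gave -1.88, -1.26 and -1.50 in op/op cells, against -1.03, -0.92 and -1.56 in WT cells, a difference of -0.37 ± 0.22 (limma adjusted p = 0.156). The 2227 probe gave -2.53, -1.20 and -1.63 in op/op cells, against -1.77, -1.55 and -2.02 in WT cells. Its difference was -0.01 ± 0.29 (limma adjusted p = 0.985, 95% interval -0.63 to 0.62). The groups overlapped on all 3 Csf1 probes and none was called. Each interval allows a lower Csf1 level in op/op cells, down to 0.85 below WT on the log2 scale for the 3749 probe. Without op/op replicate 2 the 3749 probe was called (-0.62, limma adjusted p = 0.0209), and without WT replicate 4 the 2256 probe was (-0.57, limma adjusted p = 0.0341).

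The marrow macrophages held far more Csf1 transcript than the kidney cells. The 3749 probe gave 3.15, 3.44 and 3.25 in M1 cells (replicates 2, 3 and 4) and 3.12, 3.29 and 3.28 in M2 cells. All 6 marrow arrays lay more than 3 log2 units above every renal array. Op/op cells were 13.8-fold lower than M1 cells (-3.78 ± 0.21, limma adjusted p = 1.1e-07) and 13.3-fold lower than M2 cells (-3.73 ± 0.21, limma adjusted p = 1.6e-07). WT cells were 10.5-fold lower than M1 cells (-3.40 ± 0.21) and 10.2-fold lower than M2 cells (-3.35 ± 0.21). The other 2 Csf1 probes showed the same order with smaller differences, between -3.42 and -2.17 log2 over these 4 comparisons, and all were called. These comparisons share their groups, and the background is wide: 79.1% of probes tested were called in op/op against M1 (34.2% lower, 44.9% higher), 81.5% in op/op against M2 (35.8% lower, 45.7% higher), 57.6% in WT against M1 (23.3% lower, 34.3% higher) and 62.2% in WT against M2 (25.9% lower, 36.3% higher). Most stromal markers ran with Csf1: the summed level of the 6 listed (Col1a1, Col1a2, Col3a1, Dcn, Pdgfrb and Acta2) was 8.01 to 11.01 in op/op, 9.41 to 16.5 in WT, 100 to 147 in M1 and 100 to 120 in M2 cells. Pdgfrb went the other way, higher in op/op than in M1 (0.65, limma adjusted p = 0.0409) and M2 cells (2.39, limma adjusted p = 7.4e-06), while the other 5 were lower in both. Their part in the Csf1 difference was not tested. In such bulk samples, fewer cells of a type and less RNA per cell cannot be told apart.

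**Figure D1:**
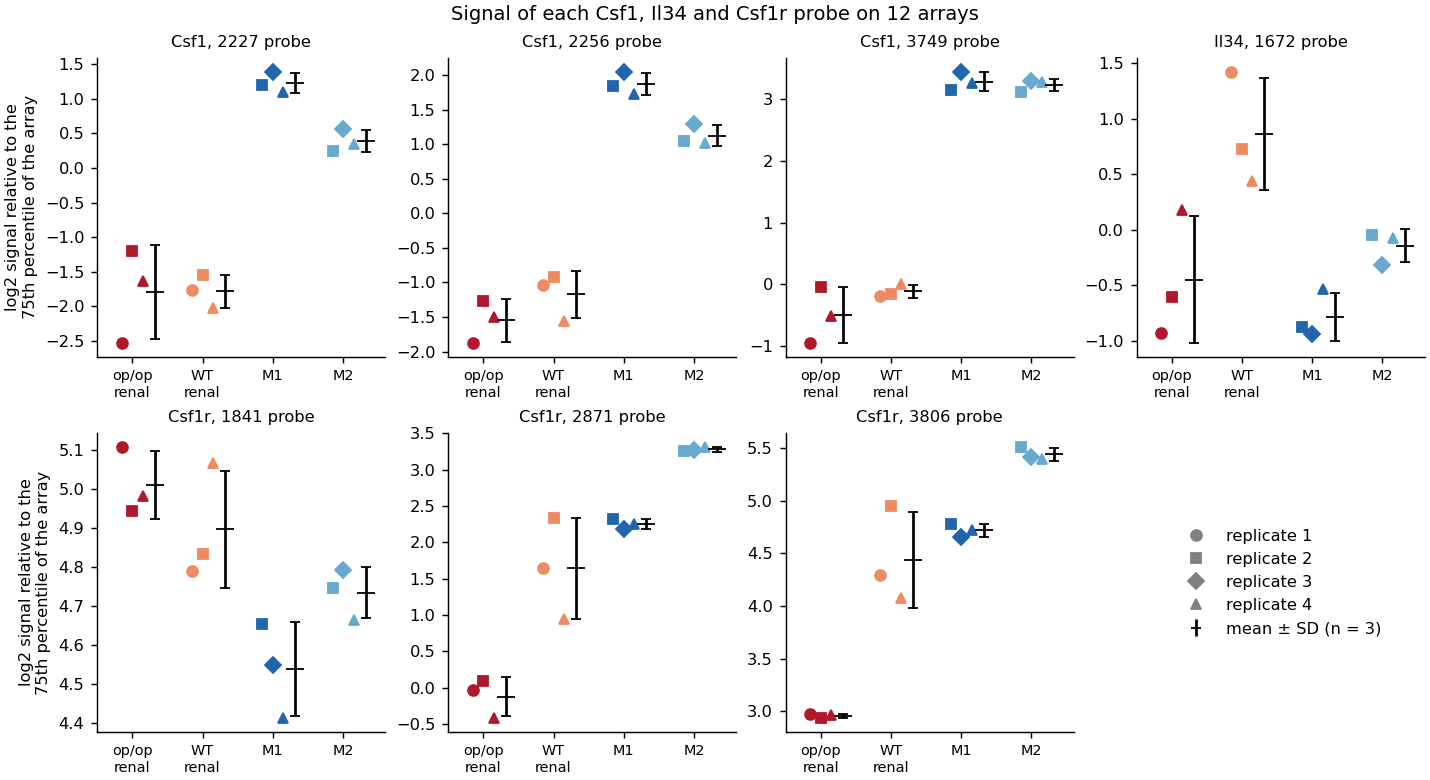
Level of each of the 7 probes on the 12 arrays (points, shape by replicate number), with the group mean ± SD to the right of the points (n = 3). The vertical axis is log2 signal relative to the 75th percentile of the array and differs between panels: Csf1 was high in both marrow groups, Il34 was highest in WT renal cells, and the 1841 probe of Csf1r spanned only 4.41 to 5.11 while the 2871 and 3806 probes were lowest in op/op cells.

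Between the marrow groups the Csf1 probes parted. The 2256 probe gave 1.85, 2.05 and 1.72 in M1 cells, against 1.05, 1.30 and 1.02 in M2 cells, and every M1 array lay above every M2 array. The difference, M1 minus M2, was 0.75 ± 0.22, or 1.68-fold (limma adjusted p = 0.0332). The 2227 probe gave 1.20, 1.39 and 1.10 in M1 cells, against 0.25, 0.57 and 0.35 in M2 cells. These groups did not overlap either, with a difference of 0.84 ± 0.29 (limma adjusted p = 0.0648). The 3749 probe, annotated to the other transcripts, differed by 0.05 ± 0.21 (limma adjusted p = 0.914, 95% interval -0.41 to 0.52). The 2227 minus the 3749 probe averaged -2.05 in M1 cells and -2.84 in M2 cells, a shift of 0.79. It passed a limma test of such gaps over all genes with several probes (adjusted p = 0.0497), where 5.26% of 6079 probe pairs were called. For the 2256 probe the same shift was 0.70 (limma adjusted p = 0.107). In an exact two-sided permutation of the 3 M1 and 3 M2 arrays both gave p = 0.1, the smallest that 3 against 3 allows.

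The stretch before the start of Csf1 is shown because all 3 Csf1 probes differed between marrow and both kidney groups. It covers the 250 bases upstream (chr3:107760470-107760719, GRCm38.p6, minus strand, sequence from RefSeq). Capitals mark the matches of an NF-kB motif, searched by that name, and of a GC box (GGGCGG), each on both strands.
Csf1 promoter: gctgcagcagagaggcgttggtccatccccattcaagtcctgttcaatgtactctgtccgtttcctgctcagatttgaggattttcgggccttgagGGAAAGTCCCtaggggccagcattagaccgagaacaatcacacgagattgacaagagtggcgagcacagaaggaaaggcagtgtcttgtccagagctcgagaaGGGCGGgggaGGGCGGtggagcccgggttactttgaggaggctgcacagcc
The NF-kB motif had 1 match, which 7.25% of 32851 promoters of this length also hold, and the GC box had 2 matches, with at least 1 in 32.7% of promoters. A PU.1 core (GAGGAA) and an AP-1 motif (TGANTCA) had 0 matches in this window. A match is a run of letters, and no binding was measured.

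Il34 was highest in the WT kidney cells. Its level was -0.93, -0.60 and 0.18 in op/op cells (replicates 1, 2 and 4), against 1.42, 0.73 and 0.44 in WT cells. All 3 op/op arrays lay below all 3 WT arrays, and replicate 4 of each group lay nearest to the other group. Op/op cells were 2.49-fold lower than WT cells (-1.32 ± 0.30, limma adjusted p = 0.00516, 95% interval -1.98 to -0.65). Within slide 2, without WT replicate 1, the difference was -1.04 (limma adjusted p = 0.0170). The call was lost when only the 2 renal groups were fitted with the replicate number as a block (adjusted p = 0.0559).

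In marrow, Il34 gave -0.87, -0.94 and -0.53 in M1 cells, against -0.04, -0.32 and -0.07 in M2 cells. Every M1 array lay below every M2 array, but the difference of -0.64 ± 0.30 was not called in the fit to all 12 arrays (limma adjusted p = 0.188). Fitted on the marrow arrays alone, whose replicates were closer together, it was called (limma adjusted p = 0.0135). WT renal cells were 3.14-fold above M1 cells (1.65 ± 0.30, limma adjusted p = 0.000756) and 2.01-fold above M2 cells (1.01 ± 0.30, limma adjusted p = 0.0128). The call against M2 was lost with the slide as a random block (1.07, limma adjusted p = 0.0552) and with the replicate block (0.91, limma adjusted p = 0.0675). Op/op cells were not called against either marrow group: 0.33 ± 0.30 against M1 (95% interval -0.33 to 0.997) and -0.31 ± 0.30 against M2 (95% interval -0.97 to 0.36). In order of mean level the groups ran WT renal, M2, op/op renal and M1, and op/op overlapped with both marrow groups.

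Proximal tubule markers moved with Il34 between the renal groups. All 11 of 11 (among them Lrp2, Slc34a1 and Slc5a2) fell in op/op cells relative to WT cells, with a median difference of -1.80 against 0.11 over all probes tested. Their summed level was 46.5, 72.1 and 25.7 in op/op cells (replicates 1, 2 and 4) and 246, 122 and 129 in WT cells. On 8 of 11 the call held without WT replicate 1. Among the op/op arrays the order was not the same as that of Il34, since replicate 4 had the lowest marker sum and the highest Il34 level. The marker sum was 1.81 to 1.88 in M1 and 3.25 to 3.83 in M2 cells, where Il34 was still well above background. Distal nephron markers did not fall as a list: of 6, 3 were higher in op/op than in WT cells, 1 was lower and 2 were not called (median 0.04). The part of tubular RNA in the Il34 difference was not tested.

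**Figure D2:**
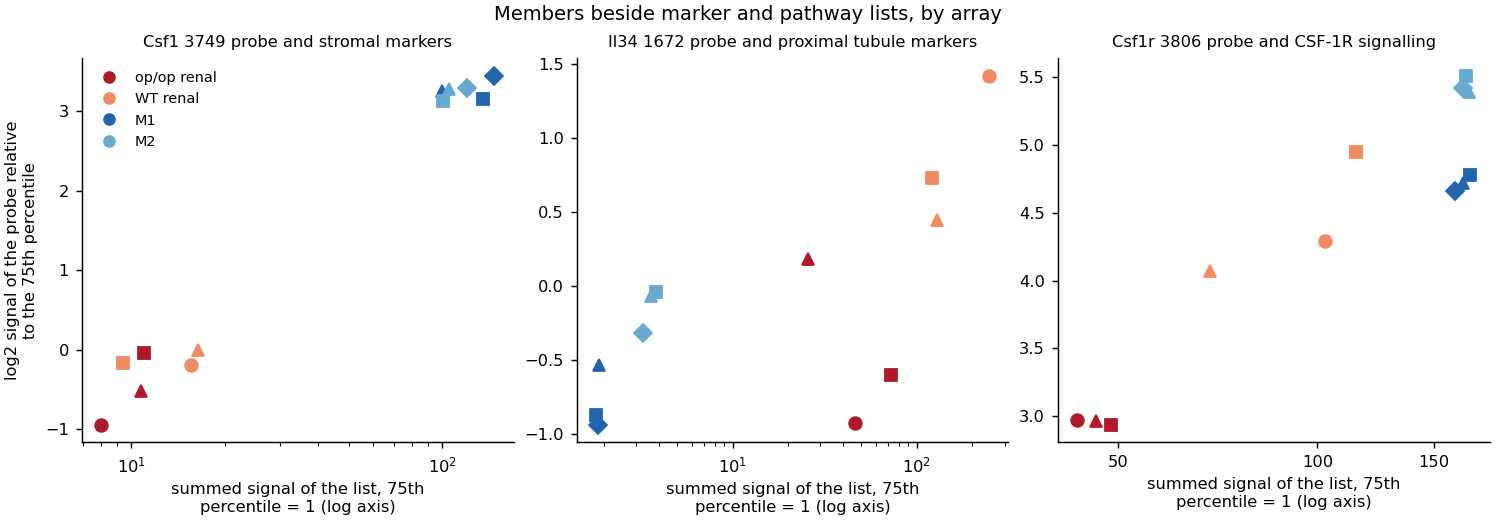
Each panel sets a member's log2 level (vertical axis) against the summed linear level of a gene list (horizontal log axis, the 75th percentile of the array being 1), 1 point for each of the 12 arrays, coloured by group. Csf1 and stromal markers were both high in marrow, and Il34 and proximal tubule markers were both highest in WT renal cells. The 3806 probe of Csf1r and the summed CSF-1R signalling genes were both lowest in op/op cells. Tyrobp leads the CSF-1R signalling sum.

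The receptor gave 2 different answers from its 3 probes. The 3806 probe of Csf1r gave 2.97, 2.94 and 2.96 in op/op cells, against 4.30, 4.95 and 4.07 in WT cells. The op/op arrays lay close together (SD 0.018), and all were more than 1 log2 unit below the lowest WT array. Op/op cells were 2.79-fold lower (-1.48 ± 0.20, limma adjusted p = 0.000737). The 2871 probe gave -0.03, 0.09 and -0.42 in op/op cells, against 1.65, 2.34 and 0.95 in WT cells. These groups did not overlap, and op/op cells were 3.40-fold lower (-1.77 ± 0.29, limma adjusted p = 0.00126). The 1841 probe, the brightest of the 3, gave 5.11, 4.94 and 4.98 in op/op cells, against 4.79, 4.83 and 5.07 in WT cells. Here the groups overlapped and the difference was 0.11 ± 0.15 (limma adjusted p = 0.524, 95% interval -0.22 to 0.44), an interval that does not reach the fall on the other probes.

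Taking Csf1, Il34 and Csf1r together, 3 of the 7 probes were called in op/op against WT, all lower, and the same 3 did not overlap between the groups. Of all 40648 probes tested, 56.3% were called in this comparison (27.6% lower, 28.7% higher) and 56.5% did not overlap, so this count lies below the background. With normexp background correction the calls over all probes split into 14942 higher and 8841 lower in op/op cells, against 11681 higher and 11218 lower here.

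The disagreement between the Csf1r probes was tested as the change in their gap to the 1841 probe. The 3806 minus the 1841 probe gave -2.14, -2.01 and -2.02 in op/op cells, against -0.49, 0.12 and -0.99 in WT cells, without overlap. The gap changed by -1.60 (limma adjusted p = 0.00134), and that of the 2871 probe by -1.88 (limma adjusted p = 0.00272). Within slide 2, without WT replicate 1, the difference in level was -1.55 on the 3806 probe and -1.76 on the 2871 probe, both called. Exact two-sided permutation of the 6 renal arrays gave p = 0.1 for both, the smallest possible. Such disagreement was common: 30.7% of 6209 probe pairs of one gene were called unequal in op/op against WT, the median size of the shift was 0.52, and 11.8% of pairs shifted by at least 1.5. Without each renal array in turn, the shift ranged from -1.86 to -1.31 for the 3806 probe and from -2.31 to -1.50 for the 2871 probe. Across the 12 arrays the 2871 and 3806 probes correlated at r = 0.99, and at r = 0.88 in their deviations from the group means, while the 1841 probe correlated with them at -0.68 and -0.65. These correlations describe 12 arrays in 4 groups. The 3 probes are annotated to the same transcript, with the 1841 probe nearest its start and the 3806 probe farthest from it. The annotation lists a further Ensembl transcript for the 3806 probe, and not for the 1841 and 2871 probes. Whether the 1841 probe measures Csf1r transcript alone was not tested.

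In marrow the 2 probes nearer the end of the transcript were lower in M1 than in M2 cells. The 3806 probe gave 4.78, 4.66 and 4.72 in M1 cells, against 5.51, 5.42 and 5.39 in M2 cells. The 2871 probe gave 2.32, 2.19 and 2.26 in M1 cells, against 3.25, 3.27 and 3.31 in M2 cells. On both probes every M1 array lay below every M2 array, by 1.65-fold on the 3806 probe (-0.72 ± 0.20, limma adjusted p = 0.0297) and by 2.03-fold on the 2871 probe (-1.02 ± 0.29, limma adjusted p = 0.0273). The 1841 probe gave 4.65, 4.55 and 4.41 in M1 cells, against 4.75, 4.79 and 4.66 in M2 cells. Its groups lay close but apart, and the difference of -0.20 ± 0.15 was not called (limma adjusted p = 0.459). The change in gap to the 1841 probe was -0.53 for the 3806 probe and -0.83 for the 2871 probe, and neither was called (limma adjusted p = 0.298 and 0.220).

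In M1 against M2, 3 of the 7 probes were called, where 18% of 39286 probes tested were (8.72% higher, 9.27% lower): the 2256 probe of Csf1, higher in M1 cells, and the 2871 and 3806 probes of Csf1r, lower in M1 cells. By contrast 6 of the 7 did not overlap, where 51.3% of probes did not. All 3 calls were lost when any 1 of the 6 marrow arrays was left out, with adjusted p between 0.0548 and 0.128, while the differences kept their direction. All 7 differences in both comparisons are drawn in the plot of intervals.

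**Figure D3:**
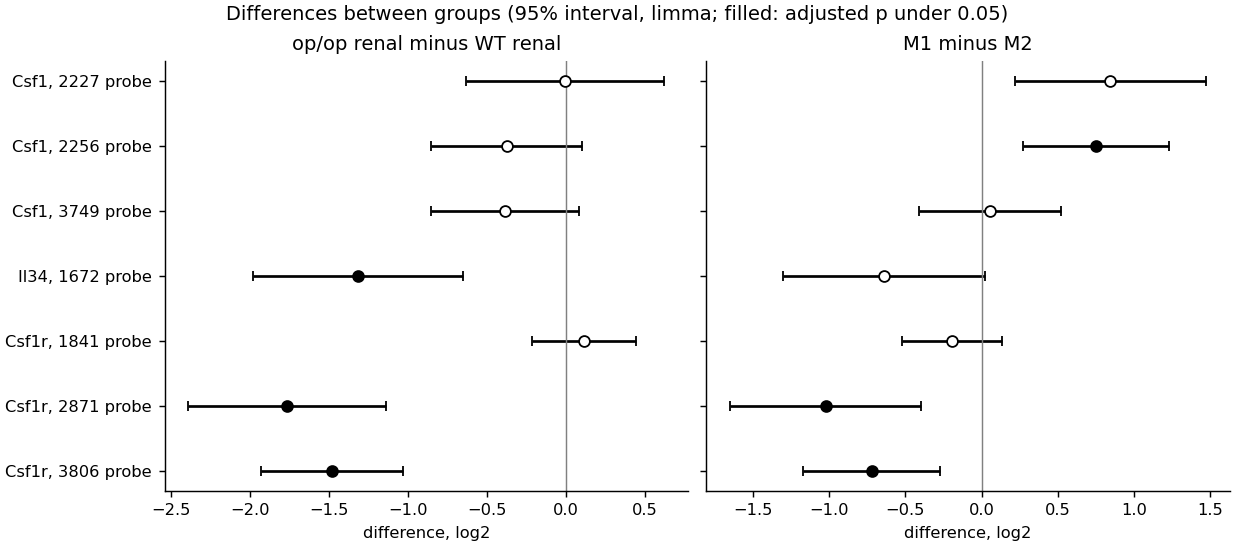
Difference of each probe in op/op minus WT renal cells (left) and M1 minus M2 cells (right), on the log2 scale, with the 95% interval from limma; filled points have an adjusted p under 0.05. The 2871 and 3806 probes of Csf1r lie below 0 in both panels, Il34 lies clearly below 0 in op/op cells, and the 1841 probe of Csf1r has an interval across 0 in both.

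Set across all 4 groups, the 3806 and 2871 probes of Csf1r ran in the order M2, M1, WT renal and op/op renal. The log2 difference of op/op from M2 cells was -2.48 and -3.40 and that from M1 cells -1.76 and -2.37, for the 3806 and the 2871 probe in turn, all called. That of WT from M2 cells was -1.001 (limma adjusted p = 0.00137) and -1.63 (limma adjusted p = 0.000493). WT and M1, neighbours in this order, overlapped on both probes and were not called (-0.28 ± 0.20 and -0.61 ± 0.29), although both were called once WT replicate 2 was left out (-0.53 and -0.96). The 1841 probe ran the other way between tissues. It was 0.47 ± 0.15 higher in op/op than in M1 cells (limma adjusted p = 0.0128), 0.28 ± 0.15 in op/op than in M2 cells (not called), 0.36 ± 0.15 in WT than in M1 cells (not called) and 0.16 ± 0.15 in WT than in M2 cells (not called). The first of these calls was lost with normexp background correction (0.27) or without M1 replicate 4 (0.41). Quantile normalization called the other 3, at 0.53, 0.74 and 0.48. Over all members, 6 of 7 probes were called in op/op against M1, 5 in op/op against M2, 4 in WT against M1 and 6 in WT against M2, beside 79.1%, 81.5%, 57.6% and 62.2% of all probes. The groups did not overlap on 6 of 7 probes in op/op against M1 (83.2% of all probes), 6 in op/op against M2 (85.8%), 5 in WT against M1 (64.4%) and 6 in WT against M2 (67.8%).

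The genes whose signal ran most like each member were taken by Pearson's r over the 12 arrays, on the brightest probe of 11979 genes. For the 3749 probe of Csf1 they were Ncam1, E2f3, Sec24d, Sec13 and Col1a2 (r = 0.994 to 0.989). For Il34 they were Nfatc1, Vps13a, Tbc1d10a, Dgkd and Glb1l (r = 0.955 to 0.907). For the 1841 probe of Csf1r they were Pabpc4, Nlrp4f, Vmn1r52, Nyap2 and Ang4 (r = 0.966 to 0.943). For the 3806 probe, looked up after its values were seen, they were Elmo1, Nrros, Erp29, Celf2 and Myo1g (r = 0.993 to 0.987), and Elmo1 and Nrros also led the list for the 2871 probe. None of the genes named here for any Csf1r probe is on the macrophage marker list used here. The 5 nearest of 11979 genes cannot show whether Csf1r followed these markers. Candidates also had to be well above background on all 12 arrays, which Cx3cr1 was not. Elmo1 takes part in the uptake of dead cells, and Nrros is a partner of latent TGF-beta in myeloid cells. The 12 arrays fall into 4 groups, so these values describe shared group differences and carry no p.

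Listed genes of CSF-1R signalling were mostly lower in op/op cells. The list holds genes that carry the signal and genes that dampen it, such as Sla, so its counts do not measure pathway output. Of 26 listed signalling genes, 19 were lower, 1 was higher and 6 were not called, with a median difference of -1.02 against 0.11 over all probes tested. Over all probes tested, 27.6% were called lower and 28.7% higher. The kinase Lyn (-1.54), the phosphatases Ptpn6 (-1.70) and Inpp5d (-1.02), the phospholipase Plcg2 (-1.13) and the adaptor Tyrobp (-1.14) fell, and the ubiquitin ligase Cblb rose (0.49). The summed level of the list was 43.4 to 48.8 in op/op cells and 68.7 to 114 in WT cells, without overlap. Tyrobp led this sum (mean log2 level 4.44 in op/op, 5.58 in WT, 6.53 in M1 and 6.72 in M2 cells). Of the 19, 15 were well above background on every renal array; Pik3ca and Pik3r1 were so on 2 of 3 op/op arrays, Pik3cg on 1 and Fyn on 0, so the size of these falls is not well measured. Without WT replicate 1 the count was again 19, and with the replicate block and only the 2 renal groups it was 7. Macrophage markers moved the same way, with 10 of 12 lower and a median of -1.71, among them Cx3cr1 (-2.58), C1qc (-2.16) and Adgre1 (-2.09). Of the genes of the 2 sorted antigens, Itgax (CD11c) was lower (-1.58, limma adjusted p = 0.000486) and Itgam (CD11b) was not called (0.34). Of 8 lymphocyte markers, 6 were tested, with a median of 1.18: 5 were higher in op/op cells and Cd79b, which passed the background call on a single op/op array, was called lower. The part of cell composition in these differences was not tested.

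Transcription factors that act on the Csf1r gene moved in the direction of the 2871 and 3806 probes in op/op cells. Of 12 listed, 9 were lower and 0 higher, with a median of -1.06 (27.6% and 28.7% of all probes). Cebpb (-1.94), Egr2 (-1.43), Spi1 (-1.40), which encodes PU.1, and Runx1 (-1.25, past the background call on 2 of the op/op arrays) fell. Without op/op replicate 1, and likewise with the replicate block and 2 groups, 5 of the 12 were called lower. The summed level of the list was 91.0 to 114 in op/op and 150 to 247 in WT cells. It was lower in marrow, at 83.5 to 86.5 in M1 and 69.9 to 72.7 in M2 cells. Egr1 led this sum in both renal groups (mean log2 level 5.89 in op/op, 6.64 in WT, 4.34 in M1 and 1.75 in M2 cells). Gene by gene, op/op against M2 cells gave 4 higher and 6 lower, and WT against M2 cells 6 higher and 4 lower. Against M1 cells these counts were 4 and 4 for op/op and 7 and 2 for WT cells. Spi1 was higher in marrow (mean 3.22 in M1 and 2.67 in M2, against 0.04 in op/op and 1.44 in WT cells). In M2 cells the 2871 and 3806 probes were highest. The part of these factors in the Csf1r differences was not tested. Of 7 genes of growth and survival downstream of the receptor, 5 were lower and 1 higher, beside the same shares of all probes: Myc (-1.45), the urokinase gene Plau (-1.55) and Mcl1 (-1.01), which protects from apoptosis, fell, and Bcl2 rose (0.79).

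Other proteins that bind IL-34 or cut CSF-1R from the cell surface gave a mixed picture. Adam17, which sheds the receptor, fell by 1.76 and Adam10, a related protease, by 1.09 on the log2 scale in op/op cells. Ptprz1, a receptor for IL-34, was higher (0.996 ± 0.328, limma adjusted p = 0.0239), and Sdc1, which binds IL-34 at the cell surface, was not called (0.48). The mean level of Ptprz1 was low, -2.59 in op/op and -3.58 in WT cells, so the size of its rise is not well measured. Of 9 relatives of the receptor and their ligands, Pdgfa fell by 1.18, Flt3l, the ligand of FLT3, rose by 1.36 (limma adjusted p = 0.0459; 0.070 with quantile normalization), and the other 7, among them Pdgfc (-0.71) and Flt3 (0.35), were not called.

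In M1 against M2 cells the pathway genes moved in both directions. Of 26 signalling genes 7 were higher and 3 lower in M1 cells, with a median of 0.12 against -0.02 over all probes tested, of which 8.72% were called higher and 9.27% lower. Sla (1.68), an adaptor that dampens receptor signals, rose, while Fyn (-3.22) and Cblb (-2.06) fell. Of the 12 transcription factors 3 were higher and 3 lower. Among them, Egr1 rose by 2.58, and Egr2 fell by 2.74 and Cebpa by 2.24 on the log2 scale. Of the growth and survival genes, Ccnd1 (-1.92), which encodes cyclin D1, and Plau (-1.16) were lower in M1 cells and 0 of 7 were higher. Bcl2 (-0.61) and Ccnd2 (0.56) were not called. Sdc1 rose by 2.14 and Adam10 fell by 0.87, while Adam17 (-0.28) was not called. Of the relatives, Pdgfrb, which is also on the stromal list, rose by 1.74 and Pdgfa fell by 1.81, and Kit (0.72) and Pdgfc (-0.41) were not called. Of the 6 stromal markers 3 were higher in M1 cells, with a median of 1.18, Dcn (3.19) and Col3a1 (2.08) being the other two; their part in these differences was not tested. The plot of pathway genes shows each list in both comparisons.

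**Figure D4:**
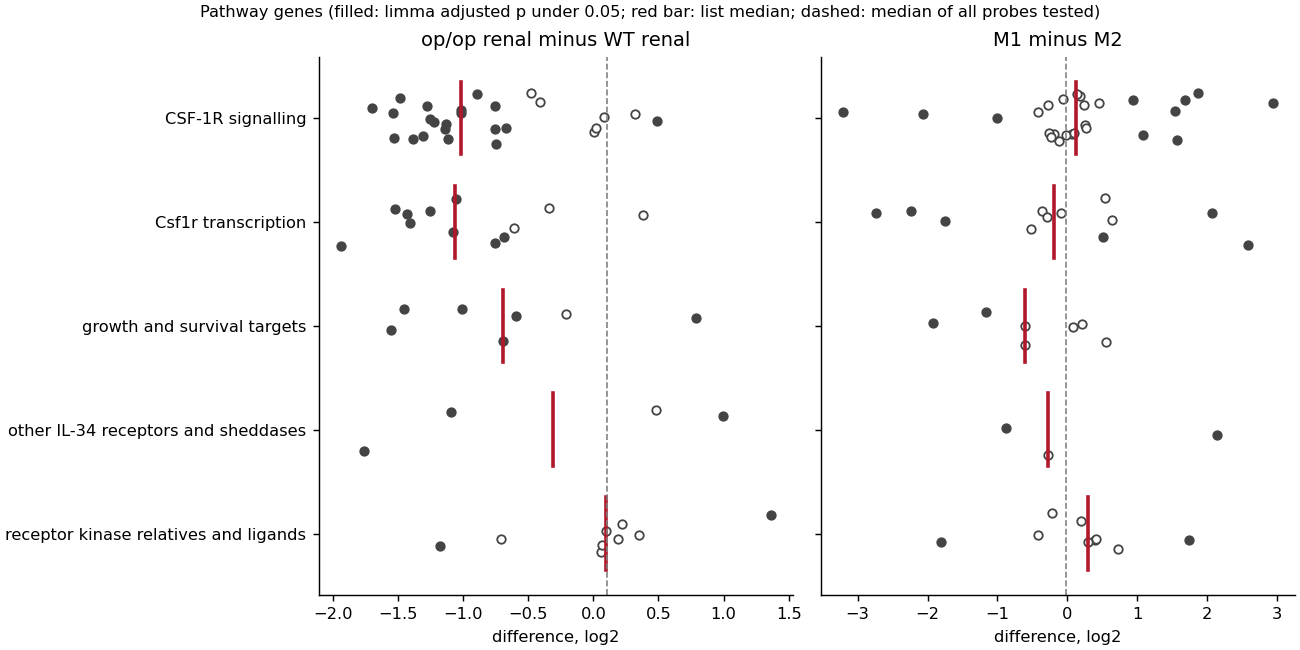
Difference of each pathway gene tested, on the log2 scale, in op/op minus WT renal cells (left) and M1 minus M2 cells (right), 1 point a gene (its brightest probe) in 5 lists; filled points have a limma adjusted p under 0.05. Red bars are list medians and dashed lines the median of all probes tested: the signalling and transcription lists have medians near -1 in op/op cells, and in M1 against M2 points lie on both sides of 0.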

How the data were processed

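Per the labels, RNeasy Micro RNA was turned into amplified cDNA (Ovation PicoSL WTA) and Cy3 labelled. The deposited spot intensity values come from Agilent Feature Extraction 10.7.3.1, per the file headers, with background taken off. The authors' log2 value table, which correlates with the scanner signals at r = 1.0, served only as an alternative. Signals were taken as log2 of the processed signal minus the 75th percentile of each array, and spots of a probe were averaged. One spot of the 3749 probe of Csf1 on op/op replicate 4 carried an outlier flag and was left out, as were 30 other probes with flagged spots. A probe was tested in a comparison if either group had it well above background on each of its 3 arrays. The model (limma 3.58.1, R 4.3.3) held the 4 groups and no other term and used all 12 arrays, with Benjamini-Hochberg adjustment. The gap between probes of a gene was fitted with limma in the same way, a test added after the data had been seen. The procedure was tested on simulated data.

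Probes well above background made up 63.1% to 68.8% on op/op, 76.1% to 79.3% on WT, 72.6% to 75.1% on M1 and 64.4% to 65.1% on M2 arrays. Precision is limited by having 3 arrays a group. The members and gene lists were chosen with earlier results of these data known. Genes named are all members, up to 4 genes with the smallest adjusted p from each pathway list in op/op against WT and M1 against M2, and the 5 genes most like each member; Lyn, Fyn, Tyrobp, Cblb, Pik3ca, Pik3r1 and Pik3cg in op/op and the markers named were chosen after their values were seen. Some genes that the rule names are left out here. Alternatives were normexp, quantile and cyclic loess scaling, median centring, the deposited values, other filters, a floor, the brightest probe, 2-group fits, trend and robust eBayes, array weights, slide and replicate blocks (statmod 1.5.0) and leaving out each array. Python 3.11.15 with matplotlib 3.10.9 drew the figures, from tables read with pandas 2.3.3 and numpy 2.4.6. Positions on mm9 were taken as the files list them, and no genome of that build was used here.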

Additional observations from a re-analysis of the deposited data

How the results depend on the processing

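No difference of a member changed direction while called. The 2871 and 3806 probes of Csf1r stayed called, with op/op below WT, and Csf1 in both renal groups below both marrow groups, under every alternative run. Deviations of same-numbered samples correlated at -0.26, 0.11 and -0.15 for op/op and WT (different numbers: -0.36 to 0.41). For M1 and M2 they correlated at -0.07, 0.21 and 0.16 (different numbers: -0.33 to 0.23). Same-numbered samples thus did not stand out, but so few values cannot settle whether replicate numbers mark pairs. The replicate block ended the call of the 3806 probe in M1 against M2 (-0.72) and of Il34 in WT against M2 (0.91), and with only 2 groups fitted that of Il34 in op/op against WT (-1.32), where 7 signalling genes and 5 transcription factors were called lower. With the block and 2 groups, 6560 probes were called in op/op against WT (13728 with 2 groups, 22899 as reported) and 13452 in M1 against M2 (14569 with 2 groups, 15245 with array weights, 4706 over brightest probes, 7066 as reported). In M1 against M2 the 2227 probe of Csf1 was called with normexp (0.77), with the filter on all 12 arrays, 2 groups, trend and robust or block and 2 groups (0.84), with array weights (0.83) and with cyclic loess (0.90). Il34 was called there with 2 groups or block and 2 groups (-0.64) and array weights (-0.62). The 2256 probe lost its call with quantile normalization (0.66). Without single marrow arrays the 2256 probe ranged from 0.66 to 0.84, the 2871 probe from -1.06 to -0.99 and the 3806 probe from -0.75 to -0.69. Without single renal arrays the 3749 probe of Csf1 ranged from -0.62 to -0.16 and the 2256 probe from -0.57 to -0.21 in op/op against WT.

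The 1841 probe of Csf1r was called higher in op/op than in M2 cells with quantile (0.53), the floor (0.28) and cyclic loess (0.55), in WT than in M1 cells with quantile (0.74), the filter on all 12 arrays, the floor or trend and robust (0.36), cyclic loess (0.48), and in WT than in M2 cells with quantile (0.48). It lost its call in op/op against M1 with normexp (0.27) and the slide as a random block (0.44), where Il34 in WT against M2 also lost its call (1.07). Leaving out single arrays gave ranges of 0.41 to 0.53 for this probe in op/op against M1 and 0.27 to 0.41 in WT against M1, of -0.96 to -0.26 for the 2871 probe and of -0.53 to -0.10 for the 3806 probe in WT against M1. Listed transcription factors lower in op/op numbered 5 to 11 without single renal arrays, and 6 proximal tubule markers were called lower there with the filter on all 12 arrays, which tests fewer of them. Normexp raised the median of all probes in op/op against WT to 0.20, against 0.11 as reported. Without a filter, calls in M1 against M2 numbered 3570 higher and 5862 lower, against 3426 and 3640. Among the pathway genes named, Flt3l, Ptprz1, Bcl2, Adam10, Inpp5d and Mcl1 lost a call, and Pdgfc, Sdc1, Bcl2, Ccnd2 and Kit gained one, under at least 1 alternative. The cause of these changes was not tested.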
